A study of Mus musculus with 9 samples.

Results

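The genes described here are the Dynlt1, Rsph3 and Tagap copies of proximal mouse chromosome 17. They were taken by gene name from the deposited expression table (Dynlt1a, Dynlt1b, Dynlt1c, Dynlt1f, Rsph3a, Rsph3b, Tagap and Tagap1), and 8 of its 13179 genes were members. They were chosen because earlier results of these libraries already showed differences among them, so their group differences are given as a description, with no p-value. Where members that passed the threshold of the whole-table fit are counted, the share of all genes stands beside the count and nothing is read from it. A gene was tested where its value reached 1 in 3 or more libraries, which all 8 did, and 13137 genes in all.

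The libraries were made from polyadenylated RNA of the gastrocnemius, a calf muscle, of mice that had been on a high-fat diet (6 weeks). The groups, of 3 libraries each, were p38αMCK-KO muscle (called p38α KO), p38α/γMCK-KO muscle (p38α/γ KO) and control muscle. MCK stands for muscle creatine kinase, whose promoter is commonly used to drive Cre in striated muscle; the age, the sex and what alleles the controls carry are not given in the sources used here. The labels do not say whether the libraries came from separate animals, so that p-values measure the spread between libraries, which may be technical.

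Dynlt1, also known as Tctex1, is a light chain of cytoplasmic dynein, the motor that carries cargo towards the minus ends of microtubules. Rsph3 encodes a radial spoke protein, part of the axoneme of motile cilia and sperm tails. Tagap encodes a GTPase-activating protein that is known from activated T cells. All these genes lie in the t complex, a segment of chromosome 17 known for segmental duplications and for variant haplotypes that distort transmission through sperm.

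By the GENCODE M21 annotation of GRCm38, the 8 genes spanned 1.673 Mb, in the order Dynlt1a (chr17:6306340-6317500, minus strand), Dynlt1b (chr17:6430112-6436296, plus), Dynlt1c (chr17:6601671-6609774, plus), Dynlt1f (chr17:6646602-6655900, minus), Rsph3b (chr17:6904413-6948682, minus), Tagap1 (chr17:6955011-6961156, minus), Tagap (chr17:7926000-7934897, plus) and Rsph3a (chr17:7945614-7979824, plus). All 8 are annotated as protein coding. An Rsph3 copy and a Tagap copy therefore sit side by side at each end of a stretch of 0.965 Mb between Tagap1 and Tagap, in opposite orientations. Mapk14, which encodes p38α, is on the same chromosome (chr17:28691329-28748406), 20.712 Mb beyond the last member.

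The coding sequences of the copies are nearly the same where they align, and how far a read can tell them apart bears on every value below. The coding sequences of Dynlt1a, Dynlt1c and Dynlt1f were identical over 342 bases, and Dynlt1b differed from them at 1 base (C21A, counted from the A of the start codon, the base of Dynlt1a first). The first 60 coding bases of each copy (exons 1 and 2) are given with that base in capitals, from the GENCODE transcripts.
Dynlt1b: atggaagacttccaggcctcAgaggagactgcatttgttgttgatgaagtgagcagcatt
Dynlt1a: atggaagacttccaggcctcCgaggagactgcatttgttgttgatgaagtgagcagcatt
Dynlt1c: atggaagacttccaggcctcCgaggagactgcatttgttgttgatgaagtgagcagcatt
Dynlt1f: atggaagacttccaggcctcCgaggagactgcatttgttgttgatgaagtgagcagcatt

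Rsph3a and Rsph3b shared 1542 aligned coding bases, with 9 mismatches and 54 positions in a gap (99.4% of the aligned bases identical). Tagap and Tagap1 shared 1512, with 6 mismatches and 627 positions in a gap, because the Tagap coding sequence has 2145 bases and that of Tagap1 1518 (99.6% identical where aligned). The densest differences are shown with the differing bases in capitals. For the Rsph3 pair these are C370A, T375G and C392G in exon 1, and for the Tagap pair A1035C and G1094A, counted along the coding sequence of Rsph3a or Tagap with its base first. The Rsph3 stretches lie at chr17:7946170-7946219 (plus) and chr17:6948062-6948111 (minus). The Tagap stretches lie at chr17:7933010-7933089 (exon 10, plus) and chr17:6956818-6956897 (exon 4 of Tagap1, minus).
Rsph3a: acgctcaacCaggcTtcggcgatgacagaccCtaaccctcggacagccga
Rsph3b: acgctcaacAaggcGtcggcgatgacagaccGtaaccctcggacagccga
Tagap: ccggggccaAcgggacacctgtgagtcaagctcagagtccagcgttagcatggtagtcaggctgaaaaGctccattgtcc
Tagap1: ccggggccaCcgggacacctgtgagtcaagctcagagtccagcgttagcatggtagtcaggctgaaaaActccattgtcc

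Reads were 51 bases long and single, so each transcript was divided into all distinct windows of 51 bases and the windows also found in a transcript of another gene were counted. Such windows made up 62.6% of Dynlt1a, 83.2% of Dynlt1b, 84.3% of Dynlt1c and 88.4% of Dynlt1f. Of the 721 windows of Dynlt1b, 121 were found in no other gene. The shares were 54.1% for Rsph3a, 62.1% for Rsph3b, 47.2% for Tagap and 69.1% for Tagap1, and 133 windows of Tagap1 were shared with Fgfr1op, a centrosomal protein gene at chr17:8165501-8196804. RSEM, which the submitters' processing notes name, divides a read that fits several genes among them by estimate, so the level of a single copy is partly a modelled value and the sum over copies is not affected by that division within the family.

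**Figure D1:**
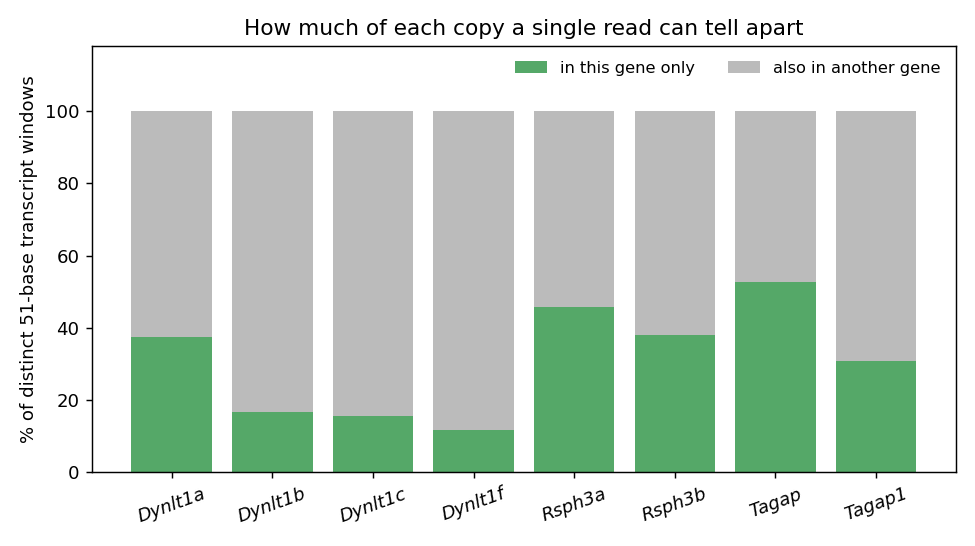
The share of distinct 51-base transcript windows that are found in that gene alone (lower, green) or also in a transcript of another gene (upper, grey), in percent, for the 8 genes. Each of the 4 Dynlt1 copies shares more than 60% of its windows, and Dynlt1f shares the most (88.4%).

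RefSeq promoters (GRCm38.p6, 300 bases around the annotated start) were listed for 6 of the 8 genes, which did not include Dynlt1a and Dynlt1b. The Tagap1 and Tagap promoters had no run of more than 8 bases in common, and neither had those of Rsph3a and Rsph3b. Tagap1 had 34 CG dinucleotides, as many as or more than which 7.73% of 32851 promoters held, and Tagap had 6, a number reached by 56.4% (CG reads the same on both strands). Dynlt1c (21 CG, reached by 24.8% of promoters) and Dynlt1f (9 CG, 45.8%) had a run of 102 bases in common. These promoters are printed with every CG in capitals, at chr17:6961107-6961406 (minus) for Tagap1, chr17:7925750-7926049 (plus) for Tagap, chr17:6601529-6601828 (plus) for Dynlt1c and chr17:6655890-6656189 (minus) for Dynlt1f. The stretch of Dynlt1c runs past its start codon (chr17:6601810), while that of Dynlt1f ends before its own (chr17:6655800). Their CG counts of 21 and 9 are therefore of different parts of the copies, and their difference rests in part on where the stretches lie. The Rsph3b promoter had 25 CG (18.4% of promoters) and that of Rsph3a 15 (34.6%).
Tagap1: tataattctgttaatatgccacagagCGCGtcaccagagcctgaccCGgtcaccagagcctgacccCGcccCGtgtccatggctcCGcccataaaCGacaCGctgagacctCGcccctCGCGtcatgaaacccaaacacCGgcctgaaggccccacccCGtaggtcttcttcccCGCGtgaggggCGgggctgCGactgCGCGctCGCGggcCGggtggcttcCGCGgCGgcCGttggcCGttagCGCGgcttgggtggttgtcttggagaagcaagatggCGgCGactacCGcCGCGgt
Tagap: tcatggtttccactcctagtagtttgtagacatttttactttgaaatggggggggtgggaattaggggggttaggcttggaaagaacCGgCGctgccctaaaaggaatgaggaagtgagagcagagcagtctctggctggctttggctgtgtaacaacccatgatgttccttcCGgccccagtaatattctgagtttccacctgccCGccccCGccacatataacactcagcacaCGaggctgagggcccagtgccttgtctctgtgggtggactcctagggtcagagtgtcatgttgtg
Dynlt1c: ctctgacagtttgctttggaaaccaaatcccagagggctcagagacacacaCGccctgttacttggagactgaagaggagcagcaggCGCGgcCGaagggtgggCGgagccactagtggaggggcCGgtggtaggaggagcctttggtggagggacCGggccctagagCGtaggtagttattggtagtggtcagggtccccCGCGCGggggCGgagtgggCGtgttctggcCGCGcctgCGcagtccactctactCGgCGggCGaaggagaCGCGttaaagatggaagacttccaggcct
Dynlt1f: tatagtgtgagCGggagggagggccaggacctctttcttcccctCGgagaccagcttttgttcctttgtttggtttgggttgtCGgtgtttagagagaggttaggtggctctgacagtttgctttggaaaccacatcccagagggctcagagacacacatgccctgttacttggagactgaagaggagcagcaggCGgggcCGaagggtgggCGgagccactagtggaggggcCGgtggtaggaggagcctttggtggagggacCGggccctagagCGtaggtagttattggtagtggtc

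Values are the normalised values deposited by the authors. Each equalled the sum of a whole number and 0.5, multiplied by a factor of its library, to within 0.001, and the whole numbers, taken as reads, summed to 23.82 to 27.94 M per library, with 1 read worth 0.03492 to 0.04335. As a check of the labels, Mapk14 averaged 43.2 ± 2.63 in p38α KO, 44.8 ± 9.03 in p38α/γ KO and 149.5 ± 7.01 in control libraries (SD, n = 3 each). Mapk12, which encodes p38γ, averaged 101.5 ± 4.46, 33.2 ± 2.18 and 143.3 ± 7.74 in the same order of groups. The 6 skeletal muscle markers (Acta1, Ckm, Myh4, Myh1, Tnnt3 and Mylpf) summed to 75970 to 113400 in p38α KO, 93960 to 96640 in p38α/γ KO and 129500 to 142000 in control libraries. In the whole-table fit 1 of the 6, Acta1, passed the threshold in p38α KO against control (−0.59, limma adjusted p = 0.027). That call was kept in 11 of 18 alternatives, and with quantile normalisation the difference was 0.155 (limma adjusted p = 0.581). Between p38α/γ KO and control 0 of the 6 passed, but 3 passed as lower with no trend. With only the 6 libraries compared, 3 passed as lower there and 1 as higher. In bulk muscle RNA, fewer cells of a type and less RNA per cell cannot be told apart.

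Among the dynein light chain copies, Dynlt1b had the largest difference between p38α KO muscle and each of the other groups. It had values of 59.2, 48.5 and 54.4 in p38α KO libraries 1 to 3, of 4.26, 22.4 and 13.5 in p38α/γ KO libraries, and of 3.83, 1.76 and 7.65 in control libraries. The p38α KO libraries lay far above all others, while the p38α/γ KO libraries ranged widely and overlapped the controls. The mean was 54.0 ± 5.37 in p38α KO and 4.41 ± 2.99 in control muscle, a ratio of 12.2 and a log2(value + 1) difference of 3.49. The mean of p38α/γ KO was 13.4 ± 9.07, 1.32 above the controls and 2.18 below p38α KO on that scale. Leaving out 1 library gave 0.84 (without p38α/γ KO 2) to 1.92 (without p38α/γ KO 1) for the difference of 1.32.

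The groups of Dynlt1c stood in the same order. It had 4.27, 4.19 and 4.001 in p38α KO, 2.43, 2.46 and 2.81 in p38α/γ KO, and 1.24, 1.32 and 2.06 in control libraries. No library of one group reached into the range of another. The log2(value + 1) difference was 1.03 between p38α KO and control, 0.50 between p38α/γ KO and control, and 0.53 between p38α KO and p38α/γ KO muscle. With a pseudocount of 5 these were 0.49, 0.21 and 0.27.

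Dynlt1a had 1.96, 2.93 and 1.97 in p38α KO, 0.928, 2.29 and 0.758 in p38α/γ KO and 0.871, 1.76 and 1.496 in control libraries. Its p38α KO libraries lay just above the controls, by 0.48 on the log2(value + 1) scale, and overlapped the p38α/γ KO libraries. Dynlt1a overlaps Tmem181a at its 3′ end on the opposite strand, and whether the counting used the strand that the directional kit marks is not given in the sources used here. Dynlt1f had 10.45, 7.83 and 6.88 in p38α KO, 7.09, 12.7 and 8.95 in p38α/γ KO and 8.89, 7.72 and 5.87 in control libraries. All of its groups overlapped, with differences of 0.14, 0.30 and −0.16 for p38α KO against control, p38α/γ KO against control and p38α KO against p38α/γ KO.

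Summed over the 4 copies, Dynlt1 was 68.9 ± 6.37 in p38α KO, 26.8 ± 12.6 in p38α/γ KO and 14.8 ± 2.26 in control libraries. The sum was 2.15 higher in p38α KO than in control muscle (log2(value + 1)). Dynlt1b made up 78.5% ± 2.26 of the sum in p38α KO, 45.7% ± 14.7 in p38α/γ KO and 28.2% ± 15.5 in control libraries, and Dynlt1f made up 12.1%, 38.2% and 52.0% in the same order of groups. Per kilobase of the longest coding transcript, Dynlt1b stood at 70.1 ± 6.96 and Dynlt1f at 10.9 ± 2.40 in p38α KO muscle, whereas in control muscle Dynlt1b stood at 5.72 ± 3.88 and Dynlt1f at 9.72 ± 1.97. The longest coding transcript of both has 771 bases. The level of Dynlt1b was above that of Dynlt1f in 3 of 3 p38α KO, 2 of 3 p38α/γ KO and 1 of 3 control libraries. Dynlt1c stood at 1.60 and Dynlt1a at 0.689 per kilobase in p38α KO muscle, over transcripts of 2589 and 3321 bases. Dynlt1b has 1 annotated transcript and 721 windows, but Dynlt1f has 2 transcripts and 3674 windows. Levels per kilobase and their order therefore depend on the transcript taken. Dynlt1-ps1, a processed pseudogene on another chromosome that shares windows with all 4 copies, had 1.34, 0.0202 and 1.94 in p38α KO, 0.403, 1.13 and 1.13 in p38α/γ KO and 0.101, 1.05 and 0.715 in control libraries, with overlapping groups.

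**Figure D2:**
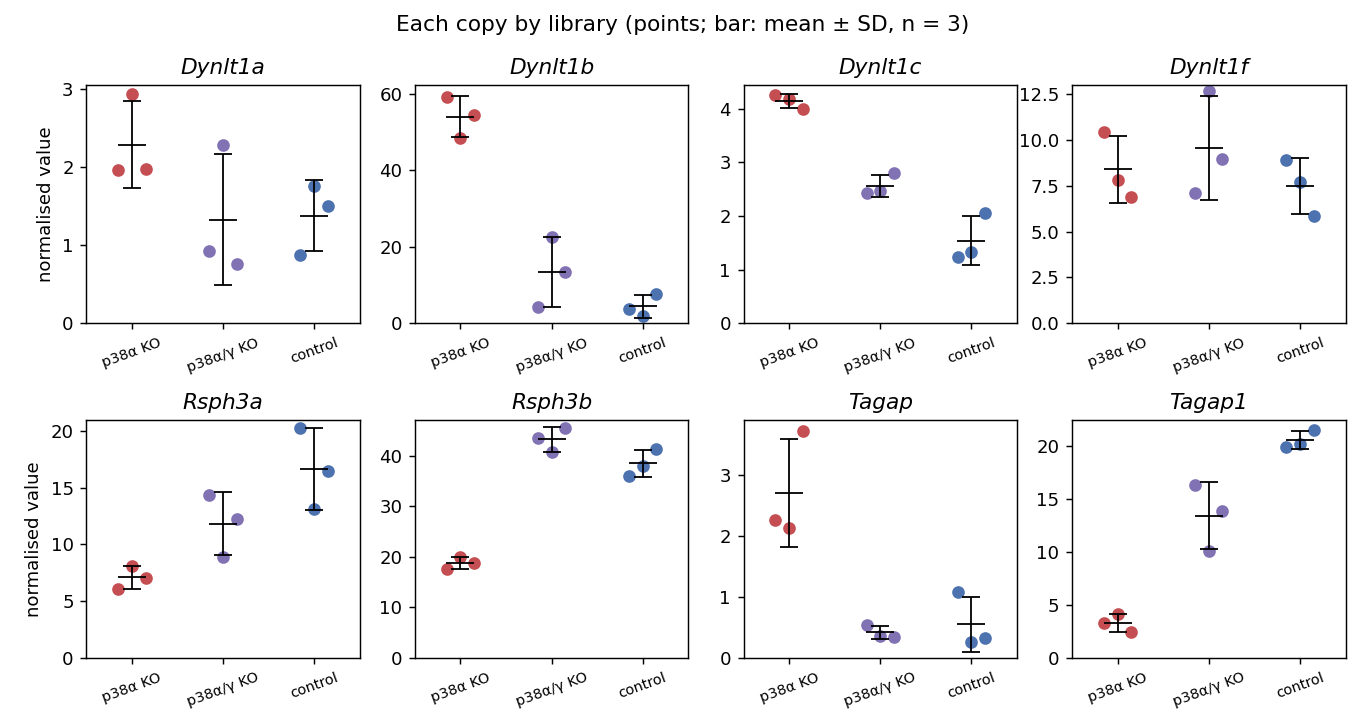
The normalised value of each of the 8 genes in every library (points), by genotype from left to right p38α KO, p38α/γ KO and control, with the mean and SD (n = 3 libraries each); each panel has its own linear axis from 0. Dynlt1b is near 54 in p38α KO and under 23 elsewhere, Tagap1 is under 5 in p38α KO and above 10 elsewhere, and Dynlt1f shows overlapping groups.

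The radial spoke gene copies were both lower in p38α KO muscle. Rsph3b, the more abundant per kilobase (8.34 ± 0.526 against 3.19 ± 0.453 for Rsph3a in p38α KO muscle), had 17.5, 19.9 and 18.7 in p38α KO, 43.6, 40.7 and 45.6 in p38α/γ KO and 36.0, 37.98 and 41.4 in control libraries. The p38α KO libraries lay below all 6 others, and p38α/γ KO and control libraries overlapped. The log2(value + 1) difference was −1.003 against control and −1.17 against p38α/γ KO muscle.

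Rsph3a had 6.10, 8.11 and 7.06 in p38α KO, 14.4, 8.89 and 12.2 in p38α/γ KO and 20.3, 13.1 and 16.5 in control libraries. Its p38α KO libraries were again below all others, but here the p38α/γ KO mean of 11.8 ± 2.76 lay between that of p38α KO (7.09 ± 1.01) and that of the controls (16.6 ± 3.59). The summed Rsph3 copies were 25.8 ± 2.19 in p38α KO, 55.1 ± 4.79 in p38α/γ KO and 55.1 ± 3.58 in control libraries. The sum was therefore 1.07 lower in p38α KO than in either of the other groups on the log2(value + 1) scale, and the means of p38α/γ KO and control muscle were less than 1 SD apart. Rsph3b made up 72.6%, 78.7% and 69.96% of the sum in p38α KO, p38α/γ KO and control libraries.

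The Tagap pair differed in opposite directions. Tagap1 had 3.28, 4.15 and 2.47 in p38α KO, 16.3, 10.04 and 13.9 in p38α/γ KO and 19.9, 20.1 and 21.5 in control libraries. No groups overlapped, the log2(value + 1) difference from the controls being −2.34 in p38α KO and −0.60 in p38α/γ KO muscle. Tagap had 2.25, 2.12 and 3.72 in p38α KO, 0.543, 0.367 and 0.348 in p38α/γ KO and 1.07, 0.257 and 0.325 in control libraries. It was thus highest in every p38α KO library, by 1.26 against control and 1.36 against p38α/γ KO muscle on the log2(value + 1) scale, or by 0.47 and 0.50 with a pseudocount of 5 in place of 1, with only 6 to 26 reads per control library and 8 to 15 per p38α/γ KO library behind the low values.

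Summed, the Tagap copies were 6.00 ± 0.406 in p38α KO, 13.8 ± 3.22 in p38α/γ KO and 21.04 ± 0.717 in control libraries, a difference of −1.66 between p38α KO and control on the log2(value + 1) scale. Tagap supplied 44.9% ± 13.6 of the sum in p38α KO, 3.07% ± 0.555 in p38α/γ KO and 2.63% ± 2.17 in control libraries. The sum was lower in p38α KO muscle although Tagap itself was higher there. Of the 15 T and B lymphocyte markers 1, Cd247, was measured here, at 0.934 to 1.94 in p38α KO, 0.926 to 1.77 in p38α/γ KO and 1.28 to 1.88 in control libraries. Macrophage markers moved with the deletions: 8 of 10 were higher in p38α KO and 9 of 10 in p38α/γ KO than in control muscle (limma, adjusted p below 0.05), and their sum was 150.8 to 346.0 in p38α KO, 163.4 to 319.8 in p38α/γ KO and 78.98 to 110.3 in control libraries. Of these 8 and 9 calls, 1 and 4 were left without control 1, 4 and 7 without control 2, and 1 and 4 without control 3. The first count was 4 without p38α KO 2, and the second was 1 without p38α/γ KO 2 and 6 without p38α/γ KO 1. The part of macrophages in the Tagap values was not tested.

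**Figure D3:**
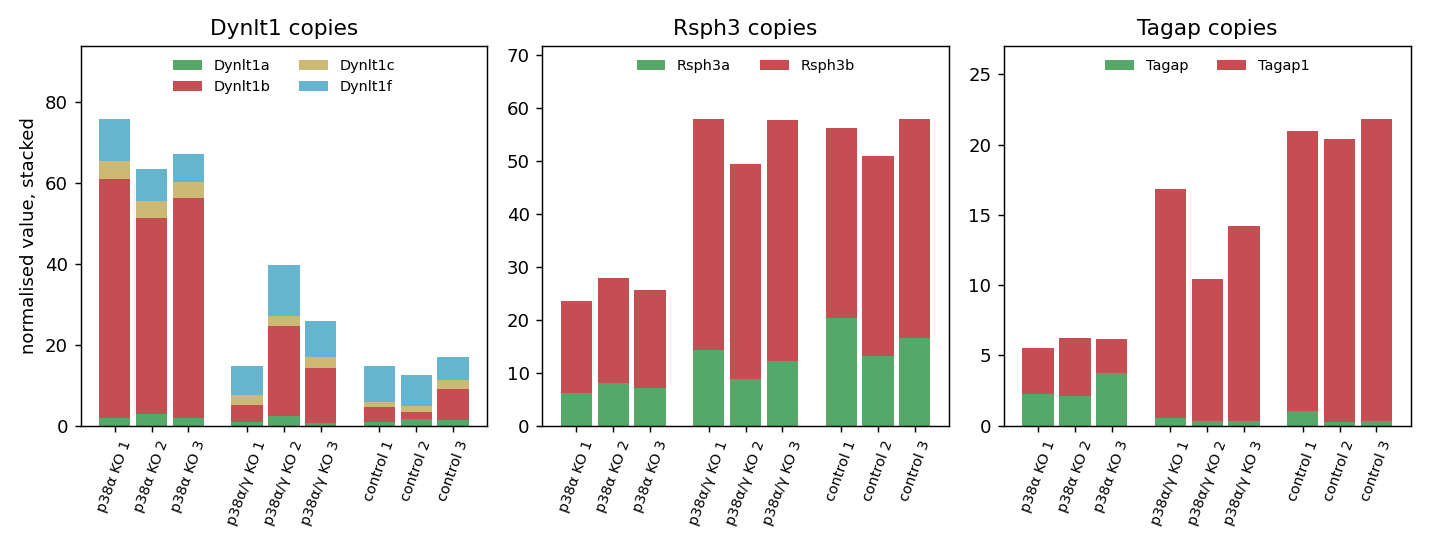
Stacked normalised values of the copies in each library, for Dynlt1 (left), Rsph3 (middle) and Tagap (right), with p38α KO libraries left, p38α/γ KO in the middle and control libraries right; each axis starts at 0. The stack of Dynlt1 is taller in p38α KO (63.4 to 75.9) than in control libraries (12.6 to 17.1), and those of Rsph3 and Tagap are shorter.

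Counted over the 8 genes, 6 passed the threshold between p38α KO and control muscle (3 higher and 3 lower), where 17.8% of all tested genes did (7.32% higher and 10.4% lower), and the groups of 7 did not overlap, against 38.6% of all genes. Between p38α/γ KO and control muscle 2 passed, Dynlt1c higher and Tagap1 lower, against 25.6% of all genes (11.2% higher and 14.4% lower), and 2 had groups that did not overlap, against 55% of all. Between p38α KO and p38α/γ KO muscle 3 passed (Tagap higher, Rsph3b and Tagap1 lower), against 0.442% of all genes (0.122% higher and 0.32% lower), and 6 had groups that did not overlap, against 14.3%. Since the genes were chosen on these contrasts, nothing is read from these counts. Tagap was tested only through its p38α KO libraries (2.25, 2.12 and 3.72), since of the others only control 1 (1.07) reached a value of 1. The contrasts of either KO with control share the control libraries.

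Neighbouring genes that the choice did not use were tested in a fit over the whole table (limma on log2(value + 1) with Benjamini-Hochberg adjustment; a gene was called at an adjusted p below 0.05). Within 2 Mb of the members 19 such genes were tested. Between p38α KO and control muscle 10 of them were called, 4 higher and 6 lower, which was 52.6% against 17.8% of all tested genes, and within 5 Mb 13 of 36 were called (36.1%). Between p38α/γ KO and control muscle 6 were called (2 higher and 4 lower; 31.6% against 25.6%, and 12 of 36, or 33.3%, within 5 Mb), and between p38α KO and p38α/γ KO muscle 1 was called (5.26% against 0.442%). The counts of 10 and 6 fell to 5 and 2 without control 1, to 5 and 4 without control 2 and to 6 and 3 without control 3. The count of 6 was 2 without p38α/γ KO 2 and 2 without p38α/γ KO 3, and it was 10 without p38α KO 1. Between p38α KO and p38α/γ KO muscle the count of 1 was 4 without p38α KO 1.

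The neighbours with the largest differences between p38α KO and control muscle, Tmem181b-ps and Rnaset2b, were themselves copies. Tmem181b-ps, a transcribed pseudogene of a transmembrane protein gene that lies beside Dynlt1b, had 7.96, 7.502 and 5.71 in p38α KO, 1.52, 3.20 and 1.58 in p38α/γ KO and 0.628, 1.36 and 1.28 in control libraries. It rose in p38α KO against control muscle by 1.96 ± 0.23 (log2 ± SE; limma adjusted p = 0.00137, the call being kept in 18 of 18 alternatives). Against p38α/γ KO muscle it was 1.41 ± 0.23 higher in p38α KO (limma adjusted p = 0.0348), a call that 8 of 18 alternatives ended, with adjusted p up to 0.176 (without p38α KO 2). They were the fits without control 2 or 3, without p38α KO 2, without the first or the third p38α/γ KO library, the replicate block, a filter at 5 and the fit on 6 libraries. Between p38α/γ KO and control muscle the difference of 0.55 did not pass (limma adjusted p = 0.103).

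Tmem181a, the protein-coding copy before Dynlt1a, averaged 15.5 ± 2.67 in p38α KO, 10.2 ± 1.75 in p38α/γ KO and 8.20 ± 0.509 in control libraries (SD, n = 3 each). It rose in p38α KO against control muscle by 0.83 ± 0.15 (limma adjusted p = 0.00692), and its difference between p38α/γ KO and control was 0.27 (limma adjusted p = 0.19). Of its 51-base windows 28.7% were found in another gene, and 49.2% of those of Tmem181b-ps. Summed, both Tmem181 copies were 22.6 ± 3.76 in p38α KO, 12.3 ± 2.70 in p38α/γ KO and 9.29 ± 0.875 in control libraries.

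Rnaset2b and Rnaset2a, which both encode a lysosomal and secreted ribonuclease, moved apart. Rnaset2b, next to Tagap1, had 11.9, 30.0 and 28.2 in p38α KO, 43.5, 34.5 and 42.5 in p38α/γ KO and 73.7, 67.9 and 61.5 in control libraries. It fell in p38α KO against control muscle by 1.60 on the log2 scale (SE 0.28; limma adjusted p = 0.00713). In p38α/γ KO the difference of −0.74 missed the threshold (limma adjusted p = 0.078) and passed it without p38α KO 1 (limma adjusted p = 0.000715) and with only the 6 libraries compared (0.00108).

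Rnaset2a, beyond Rsph3a, averaged 47.7 ± 9.69 in p38α KO, 45.0 ± 7.62 in p38α/γ KO and 26.6 ± 4.84 in control libraries. It rose in p38α KO (0.81 ± 0.18; limma adjusted p = 0.0154) and in p38α/γ KO (0.74 ± 0.18; limma adjusted p = 0.0184) against control muscle. Leaving out control 1 or control 2 ended both calls (limma adjusted p 0.0592 and 0.0595 for p38α KO, 0.0659 and 0.0635 for p38α/γ KO), and leaving out p38α/γ KO 2 or 3 ended the second (0.0795 and 0.0636). The sum of both copies was 71.1 ± 1.03 in p38α KO, 85.2 ± 3.88 in p38α/γ KO and 94.3 ± 4.14 in control libraries. Of their 51-base windows 78.6% (Rnaset2a) and 56.9% (Rnaset2b) were found in another gene.

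Among the neighbours with no copy described here, Tulp4, a tubby-like protein gene before Tmem181a, averaged 73.6 ± 2.80 in p38α KO, 88.8 ± 8.39 in p38α/γ KO and 136.5 ± 2.53 in control libraries. It fell in p38α KO (−0.88 ± 0.08; limma adjusted p = 0.00064) and in p38α/γ KO (−0.62 ± 0.08; limma adjusted p = 0.0034) against control muscle, and both calls were kept in 18 of 18 alternatives. Rps6ka2, a ribosomal S6 kinase gene, fell likewise (−0.52 ± 0.10 with limma adjusted p = 0.00966 in p38α KO, and −0.40 ± 0.10 with 0.0219 in p38α/γ KO). The second of these calls was lost without control 1 (limma adjusted p = 0.0865), control 3 (0.0685), p38α/γ KO 2 (0.0857) and p38α/γ KO 3 (0.0525).

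Ezr, which encodes the membrane-to-actin linker ezrin and is the nearest tested gene after Dynlt1f, rose by 0.73 ± 0.19 in p38α KO (limma adjusted p = 0.0314) and by 1.04 ± 0.19 in p38α/γ KO (limma adjusted p = 0.00835). Serac1, a gene of phospholipid remodelling, fell in p38α KO (−0.81; limma adjusted p = 0.0476) and p38α/γ KO (−1.07; limma adjusted p = 0.0154). Snx9, a sorting nexin gene (−0.52, limma adjusted p = 0.0257), and Fgfr1op (−0.39, limma adjusted p = 0.0184) fell in p38α KO muscle. Fgfr1op has 133 51-base windows in common with Tagap1, so its value rests in part on the division of shared reads. The 4 calls in p38α KO muscle were all lost when control 1, control 2 or control 3 was left out (limma adjusted p 0.052 to 0.124), and that of Serac1 in p38α/γ KO was lost without control 1 (0.0536), control 3 (0.0504), p38α/γ KO 2 (0.067) or p38α/γ KO 3 (0.0574). Mpc1, a mitochondrial pyruvate carrier gene named here after its value was seen, fell in p38α/γ KO (−0.33, limma adjusted p = 0.0392). That call was kept in 9 of 18 alternatives. It was lost without control 1, control 2, control 3, p38α KO 2, p38α/γ KO 2 (limma adjusted p = 0.143) or p38α/γ KO 3. The replicate block (0.057), no trend (0.055) and quantile normalisation (0.106) ended it as well. In p38α KO Mpc1 missed the threshold (−0.31, limma adjusted p = 0.058) but passed it without p38α/γ KO 1 (0.0451) or p38α/γ KO 2 (0.0439). Fndc1, the nearest tested gene before Tagap, did not pass in p38α KO (−0.02; limma adjusted p = 0.963) or p38α/γ KO (0.51; 0.217, but 0.0351 without p38α KO 1 and 0.00885 with 6 libraries) against control.

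**Figure D4:**
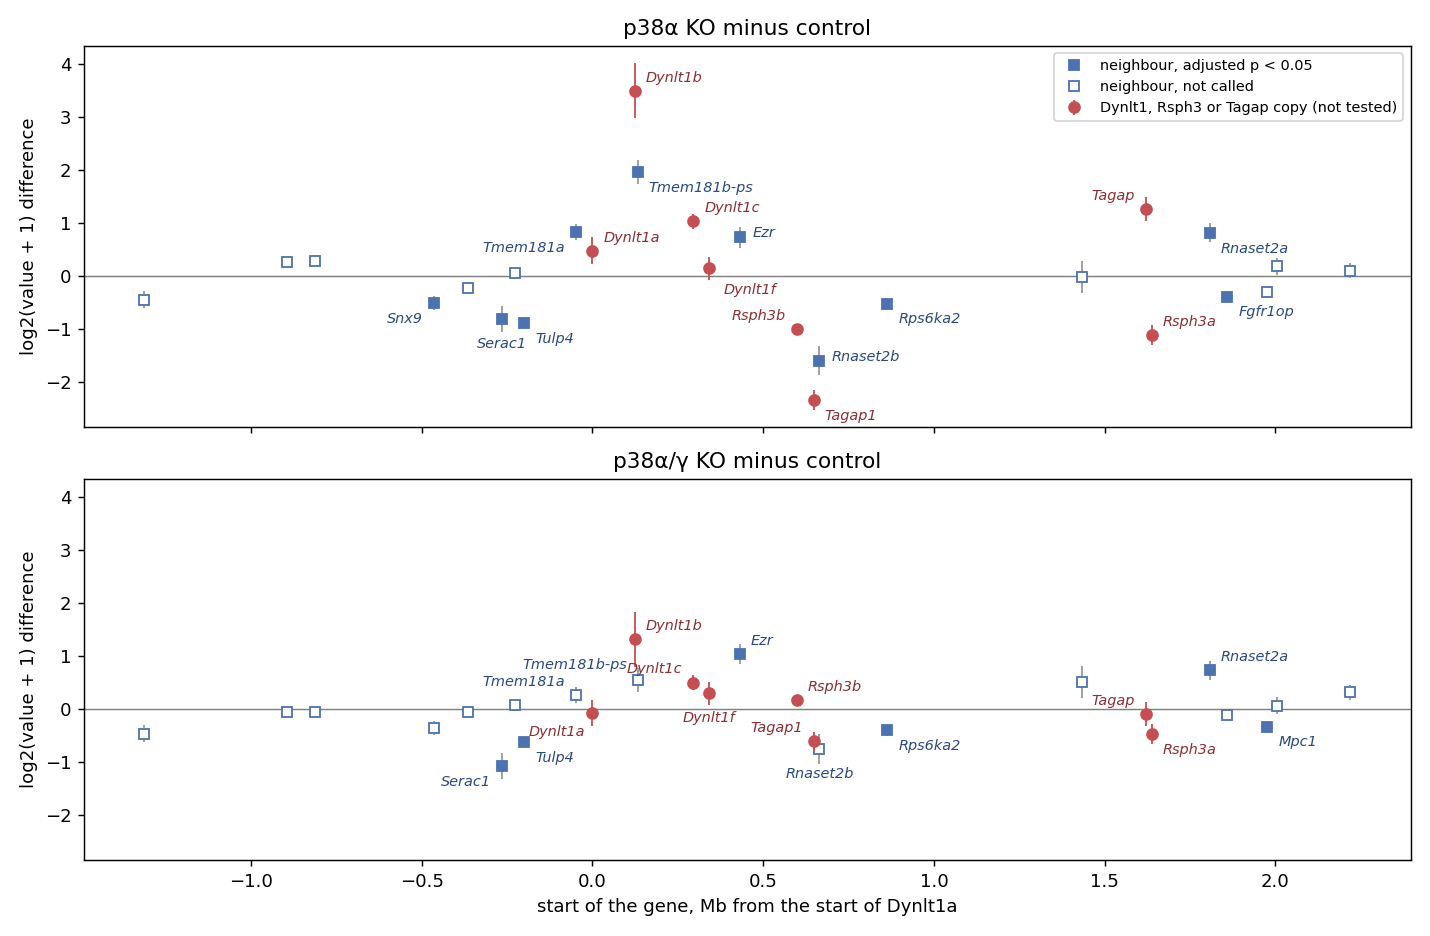
Differences in log2(value + 1) with SE, for p38α KO minus control (above) and p38α/γ KO minus control (below), against the start of each gene in Mb from the start of Dynlt1a; circles are the 8 copies, filled squares neighbours with an adjusted p below 0.05 and open squares the other tested neighbours. Higher and lower genes are interspersed along the segment, and the upper panel holds 10 called neighbours and the lower 6.

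Along chromosome 17, the segment from 5 to 10 Mb had the highest share of called non-member genes among the first 6 segments of 5 Mb in the contrast of p38α KO with control (10 of 18, 55.6%), while the segment of 10 to 15 Mb had 3 of 22 (13.6%), that of 20 to 25 Mb 22 of 65 (33.8%) and that of 25 to 30 Mb, which holds Mapk14, 18 of 95 (18.9%). Between p38α/γ KO and control the segment from 5 to 10 Mb had 6 of 18 (33.3%) and that of 20 to 25 Mb 22 of 65 (33.8%). These shares are a description, with no test.

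Genes that work with dynein or in radial spokes were tested in the same fit. Of the 25 tested cytoplasmic dynein and dynactin genes 3 fell and none rose in p38α KO against control muscle (7 had an unadjusted limma p below 0.05), a share below the 17.8% of all genes, with a median log2 difference of −0.02 beside 0.01 over all tested genes. They were Pafah1b1, which encodes the dynein regulator LIS1 (121.0 ± 4.50 in p38α KO and 174.4 ± 6.71 in control libraries; −0.52, limma adjusted p = 0.00353), Ndel1, a binding partner of LIS1 (−0.62; 0.00715), and the light chain gene Dynll2 (−0.49; 0.012). In p38α/γ KO Pafah1b1 (−0.41; limma adjusted p = 0.0083), Ndel1 (−0.57; 0.00934) and the dynactin gene Actr10 (−0.27; 0.0239) fell, and the light chain gene Dynlrb1 rose (0.50; 0.0267), the calls of Actr10 and Dynlrb1 being lost under the replicate block (0.0573 and 0.057). Leaving out control 1, control 2, control 3, p38α/γ KO 2 or p38α/γ KO 3 ended both calls as well (limma adjusted p 0.0552 to 0.107). The 3 falls and 1 rise in p38α/γ KO among the 25 tested genes were a share below the 25.6% of all genes. In p38α KO, Dynll2 was not called without control 1 (limma adjusted p = 0.0508) or control 3 (0.0574). Dynlt3, the paralogue of Dynlt1, had 49.7, 44.1 and 43.3 in p38α KO, 49.2, 49.0 and 49.3 in p38α/γ KO and 55.8, 55.9 and 52.0 in control libraries. No gene of the list was called between p38α KO and p38α/γ KO muscle (limma; 1 had an unadjusted p below 0.05), but Dynll2 was called there without p38α KO 1 (−0.46; limma adjusted p = 0.00886).

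Of 17 radial spoke genes 2 were tested, and neither was called in any contrast (limma; 1 had an unadjusted p below 0.05, between p38α/γ KO and control), but 1 was called higher in p38α/γ KO than in control muscle without p38α/γ KO 1. Their summed level was 1.60 to 2.75 in p38α KO, 1.89 to 3.14 in p38α/γ KO and 1.501 to 1.86 in control libraries. Of 11 markers of cells with motile cilia 3 were tested and none was called (limma; 2 had an unadjusted p below 0.05 in p38α/γ KO against control and none did in the other contrasts), with sums of 5.12 to 5.25 in p38α KO, 3.94 to 4.98 in p38α/γ KO and 3.42 to 5.61 in control libraries. Between p38α/γ KO and control muscle 1 of the 3 was called lower with the 6 libraries compared or without p38α KO 1, and 1 was called higher without p38α/γ KO 1. Between p38α KO and p38α/γ KO muscle 1 was called higher without p38α KO 1.

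The genes whose pattern over the 9 libraries was closest to that of the members were found by the root mean square difference of centred log2(value + 1). For summed Dynlt1 it was Tmem181b-ps (0.29), followed by Sctr (0.43), the secretin receptor gene. For Dynlt1b alone Tmem181b-ps also came first (0.86), with Mettl21e (0.88) and Gadd45a (0.91) after it. For Tagap1 the closest were Mylk4 (0.32), Slc25a25 (0.34) and Amd1 (0.35). For Tagap they were Tbc1d31 (0.27), Ermard (0.31) and D330041H03Rik (0.31), and for Rsph3b Rhobtb3 (0.16), C1qtnf4 (0.18) and Bhlhe41 (0.20). For Rsph3a they included Tdrkh (0.16) and Paip1 (0.20), and for Dynlt1c they included D830024N08Rik (0.14) and Dnase1l2 (0.15). Of the genes named here, Tmem181b-ps, Ermard (chr17:15041208-15090044), D330041H03Rik (chr17:24404649-24414542) and Dnase1l2 (chr17:24440081-24443105) lie on chromosome 17. Mylk4, Rhobtb3 and Paip1 lie on chromosome 13, and the others elsewhere. These likenesses are descriptions with no p, and points of 1 library share its depth.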

How the data were processed

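Per the labels' protocols, polyadenylated RNA (100 ng of total RNA with an RNA integrity number above 8) was made into directional libraries and sequenced as single reads of 51 bases. CASAVA 1.8, cutadapt, RSEM 1.3.1, limma and the build GRCm38 are named in the submitters' processing notes. The authors deposited a table of normalised values (a signal of 13179 genes by 9 libraries); its scaling is not given in the sources used here, and every value was whole, after division by a library factor and subtraction of 0.5, to within 0.001. A count model was not run on these values.

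Values were set to log2(value + 1) and all 9 libraries fitted together with limma 3.58.1 (R 4.3.3; empirical Bayes with trend), over the 13137 genes that reached a value of 1 in 3 or more libraries, and p-values were Benjamini-Hochberg adjusted with a threshold of 0.05. The fit was tested on simulated data. The inferred depth was 23.82 to 27.94 M reads per library; with no molecular identifiers, reads are not independent molecules. The members and lists were chosen with earlier results of these data known. Neighbours were named where called in any contrast (at most 10 by p) or nearest to a member; list genes where called (at most 3 per list and contrast by p, others where few); likeness by root mean square difference. Dynlrb1 and Mpc1 lay outside that rule and were named after their values were seen. Some genes that the rule names are not reported here.

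Deviations from the group mean correlated weakly between same-numbered p38α/γ KO and control libraries (0.111, 0.124 and 0.148), and pairs with p38α KO included negative correlations. These correlations were not tested, and deviations within a group of 3 libraries constrain each other. The main fit did not pair libraries by replicate number. A replicate block was run only as an alternative, in every contrast, on the data alone. Transcripts and coordinates came from GENCODE M21 (GRCm38), which held 13166 of the table's identifiers, and promoters from RefSeq (GRCm38.p6). Alternatives were other pseudocounts, filters and scalings, no trend, 6 libraries, a replicate block, windows of 1 and 5 Mb, and leaving out each library.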

Additional observations from a re-analysis of the deposited data

How the results depend on the processing

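Of 33 differences of members and sums, 28 kept their sign in all 14 alternatives; the others lay near 0 (Dynlt1a and Tagap in p38α/γ KO against control, Dynlt1f in p38α KO against control and against p38α/γ KO, and the Rsph3 sum in p38α/γ KO against control). Of 462 values 20 moved by at least 1 SD, all with another pseudocount. The replicate block, and leaving out a library of the group not compared, could not change a difference in this balanced design. The counts of 14 and 462 include these alternatives, so they overstate how far stability was checked. With a pseudocount of 5 the Dynlt1 sum (p38α KO against control) was 1.90 and the Tagap sum −1.24, and −0.76 against p38α/γ KO; with 0.5 the Tagap sum against control was −1.73. For p38α KO against control a pseudocount of 5 gave single copies 2.69 (Dynlt1b), −1.62 (Tagap1), 0.49 (Dynlt1c), 0.47 (Tagap) and 0.19 (Dynlt1a), and the last 3 of these were 1.03, 1.26 and 0.48 with 1. For p38α/γ KO against control it gave 0.88 for Dynlt1b. Leaving out 1 library gave sums between 2.04 and 2.25 (Dynlt1), −1.13 and −1.01 (Rsph3) and −1.69 and −1.61 (Tagap) for p38α KO against control. For p38α/γ KO against control it gave 0.39 (without p38α/γ KO 2) to 1.08 (without p38α/γ KO 1) for the Dynlt1 sum, 0.84 to 1.92 for Dynlt1b and −0.61 to −0.29 for Rsph3a, and for Dynlt1a 0.31 to 0.59 in p38α KO against control and 0.37 to 0.82 against p38α/γ KO.

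Genes called over the whole table numbered 2332 in p38α KO against control, 3368 in p38α/γ KO against control and 58 in p38α KO against p38α/γ KO. With the 6 libraries compared these were 1364, 5536 and 22, and with the replicate block 1555, 2320 and 32. Leaving out 1 library gave 837 to 3257, 859 to 5388 and 23 to 1872 (the last without p38α KO 1).

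Called neighbours ranged from 5 to 11 in p38α KO against control, from 2 to 10 in p38α/γ KO against control, and from 0 to 4 in p38α KO against p38α/γ KO when 1 library was left out. Within 5 Mb they numbered 13 of 36 in p38α KO and 12 of 36 in p38α/γ KO against control, and with 6 libraries 7 and 10. In p38α KO against p38α/γ KO they numbered 0 with the replicate block, with 6 libraries and with a filter at 5. With the replicate block they numbered 7 in p38α KO and 5 in p38α/γ KO against control. The cause of these moves was not tested.

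Single copies rest on the division of shared reads, which cannot be redone from the deposited values, and the low levels of Tagap and Dynlt1a rest on few reads.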
